A study of Mus musculus with 2 samples.

Results

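The collagen, laminin and integrin genes are the mouse genes for the main structural proteins outside cells and for the receptors that hold cells to them. They were taken by symbol from the protein-coding genes of GENCODE M21 on chromosomes 1 to 19, X and Y: Col followed by a digit, Lama, Lamb or Lamc followed by a digit, and Itga or Itgb followed by a digit or a letter. This gave 87 of 21938 genes, made up of 45 matched as collagen, 11 as laminin and 31 as integrin. Of these, 5 match by their letters and name another kind of protein, namely Col4a3bp, Itgb1bp1, Itgb1bp2, Itgb3bp and Itgbl1, so that 82 genes are collagens, laminins or integrins in the strict sense.

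The study measured DNase-seq, in which the enzyme DNase I cuts chromatin where it is open and the cut ends are sequenced. There was 1 group of 2 biological replicates, with no treatment and no second condition. Both came from hippocampus of B6CASTF1/J males aged 14 days, that is, first-generation offspring of a cross between the C57BL/6 and CAST/EiJ strains. The labels speak of a hippocampal layer that they do not specify, mention 3 males for each replicate and give both the same donor identifier, so animals may have been pooled and the spread between replicates may be partly technical. Peaks are stretches that the authors called open in 1 library, each with 1 value of unstated unit. The unit's scaling between libraries is also not stated.

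Collagens are proteins wound from a triple helix of chains. Some form the fibrils of connective tissue, while type IV collagen forms the sheet of the basement membrane, the thin layer on which epithelia and blood vessels rest. Laminins are cross-shaped proteins of an alpha, a beta and a gamma chain that build the same layer. Integrins are receptors made of an alpha and a beta chain that span the cell membrane, bind collagen, laminin, fibronectin or other cells outside and connect to actin inside. In brain, basement membrane surrounds the vessels and underlies the meninges, while neurons and glia carry integrins that act in migration, synapse maturation and the activation of growth factors.

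A promoter was the stretch of 1000 bp either side of any annotated start site, and a gene was called open when both replicates had a peak there. The replicates had 115072 and 95711 peaks, with median values of 0.594 and 0.734. Among marker genes, 6 of 6 hippocampal neuron markers were open, with summed promoter values of 14.3 in replicate 1 and 18.01 in replicate 2, as were 3 of 5 astrocyte markers (5.82 and 6.05, Aldh1l1 at no peak) and 1 of 4 oligodendrocyte markers (0.834 and 2.57, Mog and Sox10 at no peak). Markers of the cells best known for making matrix or carrying leukocyte integrins were open in 1 of 5 cases for endothelial cells (summed values 0.799 and 1.27, with Cldn5 and Tek at no peak), 3 of 5 for mural cells (1.90 and 2.06, Acta2 at no peak), 4 of 6 for meningeal and perivascular fibroblasts (3.57 and 5.66, Lum at no peak), 1 of 5 for microglia (1.66 and 0.840, Aif1 and Spi1 at no peak) and 2 of 4 for choroid plexus (1.12 and 2.32, Folr1 at no peak). Over all protein-coding genes 64.3% were open, a share that differs with the CpG content of the promoter, given below for these markers too. The sums also hold markers with a peak in 1 replicate only. In microglia the open marker, Csf1r, had 0.834 and 0.840, while Cx3cr1 and P2ry12 had a peak in replicate 1 only. Mbp (1.16), Ttr (0.783) and Twist1 (0.677) had one in replicate 2 only. Of the fibroblast sums Pdgfra alone held 1.80 and 2.58, while the other open markers, Foxc1, Tbx18 and Dcn, had at most 0.849 and 1.15. The signal is from bulk tissue, in which fewer cells of a type and less open chromatin per cell cannot be told apart. The part of these cells in the values below was not tested.

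Of the 87 genes, 53 (60.9%) were open, against 64.3% of all 21938 protein-coding genes, and without the 5 matched by letters alone 49 of 82 were. Collagens had 25 of 45 open (55.6%), laminins 9 of 11 (81.8%) and integrins 19 of 31 (61.3%). The laminin share lay above that of all genes here and below it where weak peaks did not count: with peaks under the median value of their list left out, laminins had 4 of 11 open (36.4%) and collagens 16 of 45 (35.6%), against 59.5% of all genes, and on the authors' shorter peak list laminins had 6 of 11 (54.5%), against 59.3%. A further 6 genes had a promoter peak in 1 replicate only, against 3.56% of all genes, and 28 had none in either, against 32.1%. With every peak of the longer list counted, the share of open members lay near that of all genes, while their peak values were lower. Where weak peaks did not count, the share of each family fell below that of all genes. On the shorter list collagens had 17 of 45 open (37.8%) and integrins 17 of 31 (54.8%), against 59.3% of all genes. The mean value of the 2 replicates had a median of 1.15 over the 53 open members, against 2.87 over all 14116 open genes. As many as 35 of the 53 lay below the lower quartile of all open genes (1.57), and 47 lay below the median. Above the upper quartile of 4.35 lay 2, Itgb1bp1 and Col4a3bp, both matched by letters alone; Col4a3bp, at 4.36, lay just past it.

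**Figure D1:**
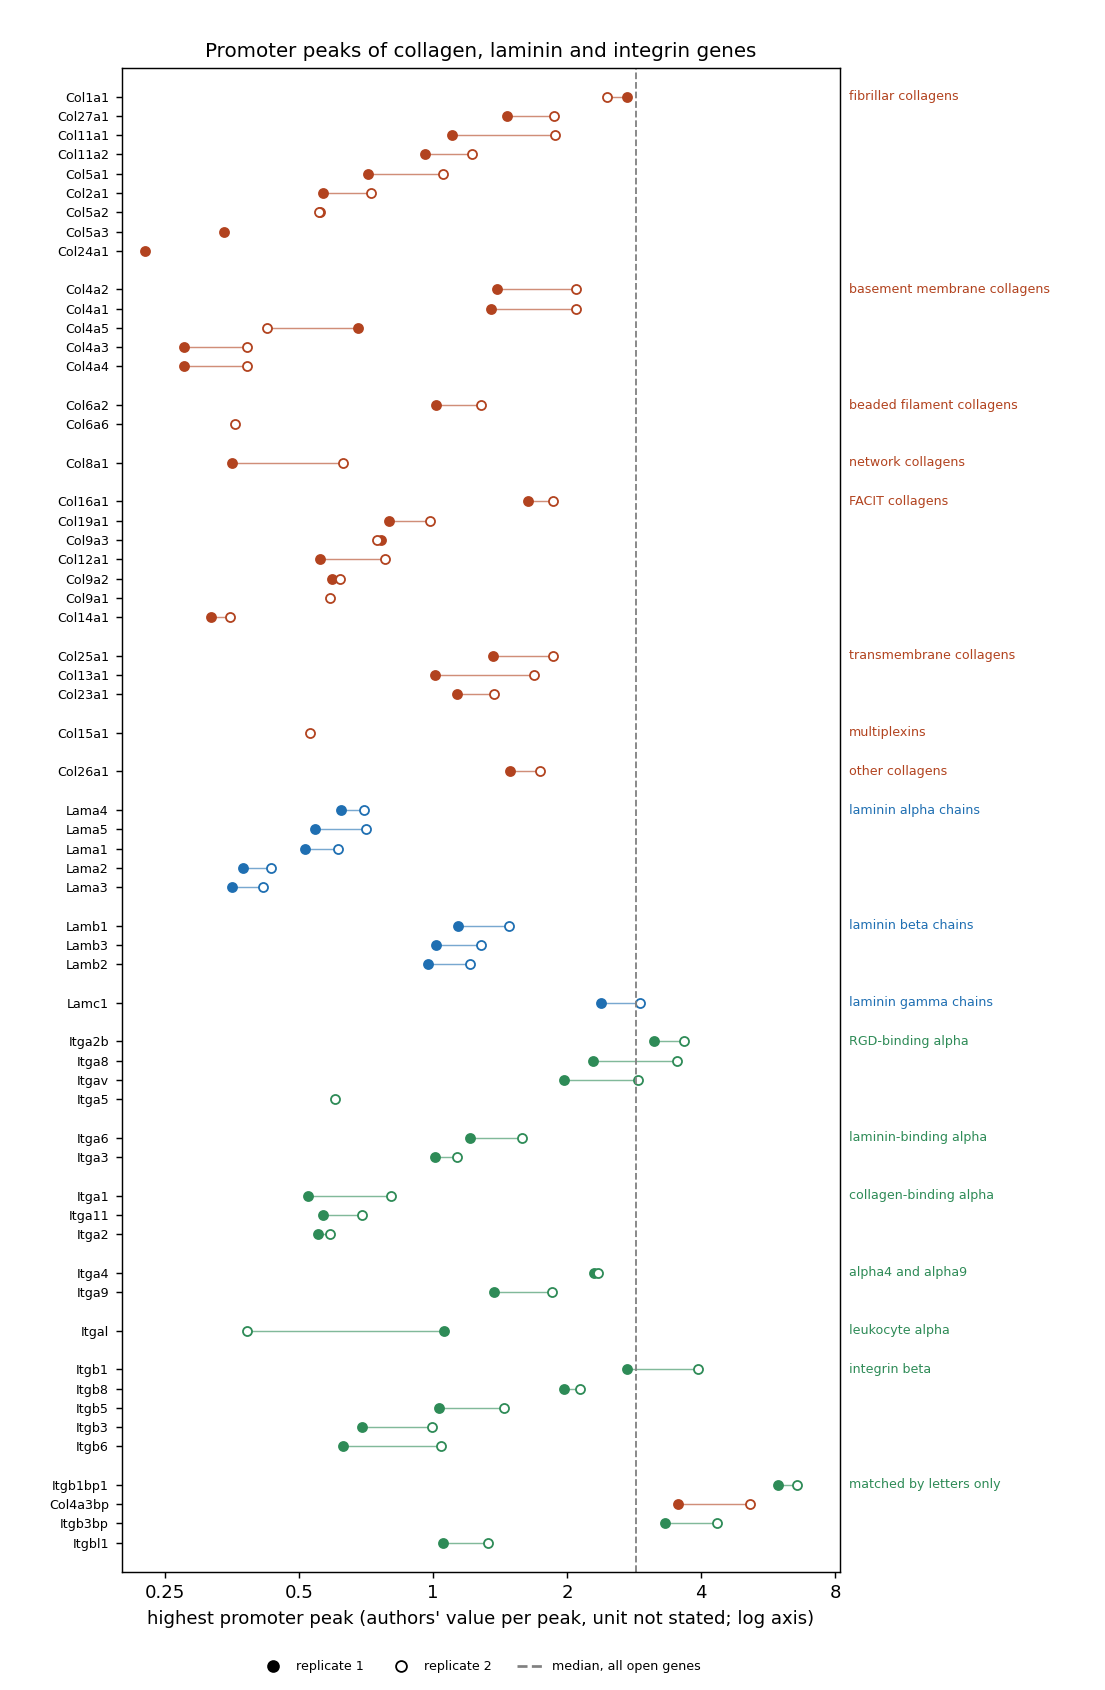
Highest promoter peak of each of the 59 collagen, laminin and integrin genes with a promoter peak, grouped by protein class. Filled points are replicate 1 and open points replicate 2, the horizontal axis is the authors' value per peak on a log scale, and the dashed line is the median of the mean value over all open genes, 2.87. A line joins the replicates, and most points lie left of the dashed line.

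The CpG ratio, observed over expected over 1000 bp, was the highest over the start sites of a gene. That start site need not be the one with the highest peak. Promoters rich in CpG were taken as those with a ratio of 0.6 or more. Of the 87 members 32 had one (36.8%), against 52.5% of all genes. Members with a CpG-rich promoter were open in 26 of 32 cases (81.2%), against 95% of all such genes. Those with a CpG-poor promoter were open in 27 of 55 cases (49.1%), against 30.5% of all such genes. So the members stood below all genes on one side of the CpG limit and above them on the other, while the totals were close. Peak values were lower on both sides, with a median of 1.503 for open CpG-rich members against 3.35 for all such open genes, and of 0.722 for CpG-poor members against 1.33. The remaining 6 CpG-rich members were not open, among them Col15a1, Col8a2, Lamc3, Itga5 and Itgb4. Of the marker genes named before, 13 of 15 with a CpG-rich promoter were open, and 8 of 25 with a CpG-poor one. All 5 microglia and 4 of 5 endothelial markers were CpG-poor, with 1 and 0 of these open. Among fibroblast markers 4 of 6 were CpG-rich, with 3 of these open.

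**Figure D2:**
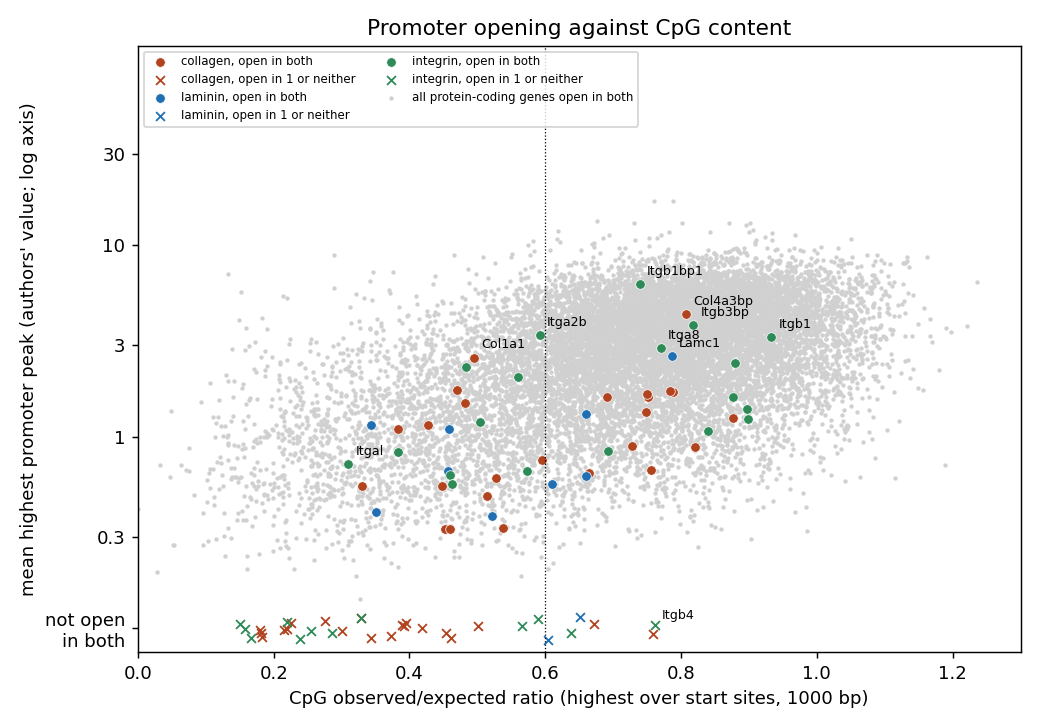
CpG content of the promoter (observed over expected ratio, horizontal) against the mean promoter peak value of the 2 replicates (authors' value, vertical, log scale). The ratio is the highest over the start sites of a gene. Coloured points are open members, crosses in the bottom row are members not open in both replicates, spread slightly for legibility, grey points are all open protein-coding genes and the dotted line is the limit of 0.6. Most coloured points lie in the lower part of the grey cloud, at all CpG contents.

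Fibrillar collagens, the rope-forming collagens of bone, skin and cartilage, had 7 of 11 genes open. Col1a1, a chain of type I collagen, had values of 2.73 in replicate 1 and 2.46 in replicate 2, the highest of any collagen in the strict sense in both. It was among 5 open members with the lower value in replicate 2, while 13037 of all 14116 open genes had the higher value there. Its peak was not at the 5′ end: the midpoint lay 956 bp into the gene, at -505 bp from an internal start site. Col27a1, a fibrillar collagen of cartilage, had 1.46 and 1.88, its peak 1.35 kb into the gene in replicate 1. Col11a1, a chain of type XI collagen that sets fibril thickness, had 1.10 and 1.88. Both were higher in replicate 2. Col1a2 and Col3a1, the partner chain of Col1a1 and the collagen of vessel walls and soft tissue, had no promoter peak in either replicate. Col5a3 (0.339) and Col24a1 (0.226) had one in replicate 1 only.

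The Col1a1 peak, the same stretch in both replicates, is printed because it was the strongest collagen promoter peak and because its footprint is compact. It is chr11:94937081-94937280 of GRCm38 (mm10), plus strand, in an intron. A footprint is a short run of bases protected from cutting inside an open stretch, as called by the authors, and capitals here and in every sequence below mark bases inside a footprint of both replicates.
Col1a1 promoter peak: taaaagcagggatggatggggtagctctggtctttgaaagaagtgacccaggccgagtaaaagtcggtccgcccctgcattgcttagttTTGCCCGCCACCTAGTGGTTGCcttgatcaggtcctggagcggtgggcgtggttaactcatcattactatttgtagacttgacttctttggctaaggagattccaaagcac
The run of 22 protected bases holds CCACCTAGTGG, which stands at bases 97 to 107 of the sequence and matches the pattern CC, any 2 bases, CT, any 2 bases, TGG on either strand. This pattern resembles the core of the motif of CTCF, a DNA-binding protein that shapes chromatin loops, and is called CTCF-like from here on. It was chosen after the sequences had been seen. A match describes the letters and is no evidence that the factor bound.

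Basement membrane collagens, the type IV chains, had 5 of 6 genes open. Their genes lie in head-to-head pairs, and the pairs differed in level. Col4a1 and Col4a2, the chains found in nearly all basement membranes including those of brain vessels, have 5′ ends that overlap by 22 bp. Col4a1 had 1.35 in replicate 1 and 2.10 in replicate 2, and Col4a2 had 1.39 and 2.10. The value in replicate 2 is of 1 peak over both starts. The highest Col4a2 peak of replicate 1 instead lay 93135 bp into that gene, its midpoint 1033 bp from the nearest internal start site. Col4a3 and Col4a4, best known from kidney and lung, have 71 bp between their starts and shared a single weak peak of 0.276 and 0.383. Col4a5, the third chain of the kidney network, had 0.679 and 0.424, lower in replicate 2. Col4a6, 1308 bp away from it, had no peak. It was the only one of the 28 members with no promoter peak to hold stretches with a listed cut rate in both replicates. The lowest false discovery rates there were 0.000163 and 0.00335, and the stretches covered 73 and 24 bp. A Col4a6 window overlaps one of Col4a5, and whether the stretches lay in that overlap was not tested. Stretches of this kind, listed by the authors at a rate under 0.05, were found in both replicates at 0.497% of the 7042 genes with no promoter peak and in neither replicate at 25 of the 28 members (89.3%), against 97.0% of those genes.

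The stretch between the starts of Col4a3 and Col4a4, the weakest open pair, is shown. It is chr1:82586850-82586920 of GRCm38, plus strand, with no footprint of both replicates and so no capitals. It lies outside the called peak, which spans chr1:82586924-82587199 in replicate 1 and chr1:82586971-82587061 in replicate 2, inside Col4a3.
Col4a3/Col4a4 start region: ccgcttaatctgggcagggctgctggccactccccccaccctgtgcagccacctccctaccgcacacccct
It holds 2 CpG in 71 bases, at a GC content of 69.0%. The start region of Col4a1 and Col4a2 is transcribed throughout and is not printed.

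Beaded filament collagens, the type VI chains that surround cells in connective tissue, had 1 of 6 open. All 6 had a CpG-poor promoter, and of all such genes 30.5% were open. Col6a2 had 1.02 and 1.28. Col6a6 had a peak in replicate 2 only (0.359), and Col6a1, Col6a3, Col6a4 and Col6a5 had none. Network collagens had 1 of 3 open, Col8a1, a collagen of vessel walls and the cornea, at 0.354 and 0.628, where the highest peaks of the replicates did not overlap. Col10a1, the collagen of hypertrophic cartilage, and Col8a2 had none.

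FACIT collagens, which sit on the surface of fibrils, had 6 of 9 open. Col16a1 had 1.63 and 1.86, over a window shared with the start of the noncoding gene Gm12963. Col19a1, a collagen made by hippocampal interneurons, had 0.799 and 0.986. Col9a3, a chain of the cartilage collagen IX, had 0.764 and 0.750. These values lay close together between the replicates. Col9a1, its partner chain, had a peak in replicate 2 only (0.587), and Col20a1 and Col22a1 had none.

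Transmembrane collagens, which are anchored in the cell membrane, had 3 of 4 open. Col25a1, a neuronal collagen whose shed part is found in amyloid plaques, had 1.36 and 1.86, its peak 49.3 kb into the gene. Col13a1, a collagen of the neuromuscular junction, had 1.01 and 1.69, its peak 101 kb into the gene. Col23a1 had 1.13 and 1.37. All were higher in replicate 2. Col17a1, the collagen of epidermal hemidesmosomes, had none. Multiplexins, collagens of basement membrane zones, had 0 of 2 open: Col15a1 had a peak in replicate 2 only (0.530), and Col18a1, the source of endostatin, had none. Among the remaining collagens Col26a1, first described in testis and ovary, had 1.49 and 1.74, its peak 127 kb into the gene. Col7a1, the anchoring fibril collagen of skin, and Col28a1 had none.

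Laminin alpha chains were all open, 5 of 5, at low values. All 5 lost this call when peaks under the median value of their list were left out, and Lama2, Lama3 and Lama5 lost it on the shorter list. Lama4, an alpha chain of vessel walls, had 0.622 in replicate 1 and 0.701 in replicate 2, and Lama5, also found there, had 0.544 and 0.709. Lama1, an early embryonic chain, had 0.516 and 0.611. Lama2, the chain of muscle and of some brain vessels, had 0.375 and 0.432, its peak 3.08 kb into the gene in replicate 1. Lama3, an epithelial chain, had 0.354 and 0.416. Each was higher in replicate 2, and none exceeded 0.709 in either replicate.

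Laminin beta chains were also all open, 3 of 3. Lamb1, the beta chain of most laminins, had 1.14 and 1.48. Lamb3, the epidermal beta chain, had 1.02 and 1.28, but its peak lay at an internal start site shared with the start of G0s2, a lipase inhibitor. Lamb2, the beta chain of synaptic and vascular basement membrane, had 0.976 and 1.21. Gamma chains had 1 of 3 open. Lamc1, the gamma chain of most laminins, had 2.38 and 2.92, the highest laminin values in both replicates. Lamc3 had no peak, and it had a listed cut rate stretch in replicate 1 alone, at a rate of 0.0356.

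Integrin alpha chains that bind the RGD motif of fibronectin and related proteins had 3 of 4 open. Itga2b, the alpha chain of the platelet fibrinogen receptor, had 3.14 and 3.67. This peak lay 2.96 kb into the gene in replicate 1, at an internal start site of a noncoding transcript, and the gene lost its call when only start sites of protein-coding transcripts were used. Itga8 had 2.28 and 3.53, over a window that also holds the start of the noncoding gene E030013I19Rik. Itgav, which pairs with several beta chains, had 1.97 and 2.89. All were higher in replicate 2. Itga5, the fibronectin receptor chain, had a peak in replicate 2 only (0.603).

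Laminin-binding chains had 2 of 3 open, Itga6 at 1.21 and 1.58 and Itga3 at 1.01 and 1.13. Itga7, best known from muscle, had none. The Itga6 peak lay 92.4 kb into the gene, at an internal start site. Collagen-binding chains had 3 of 4 open at low values: Itga1 had 0.523 and 0.807, Itga11 0.566 and 0.693, and Itga2 0.552 and 0.587. Itga10, a cartilage integrin, had none. Itga4, which binds fibronectin and the vessel adhesion protein VCAM, had 2.31 and 2.35, nearly equal between replicates, and Itga9, a receptor for tenascin, had 1.37 and 1.85. Of the 5 leukocyte alpha chains, all with a CpG-poor promoter (30.5% of all such genes were open), 1 was open. It was Itgal, a chain of the lymphocyte function antigen, at 1.06 and 0.383, with its peak 12.8 kb into the gene at an internal start. Its log2 ratio of replicate 2 over replicate 1 of -1.47 was the lowest of all open members.

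Integrin beta chains had 5 of 9 open. Itgb1, the partner of most alpha chains, had 2.72 and 3.95. Itgb8, which activates transforming growth factor beta in brain, had 1.97 and 2.14, and Itgb5, a vitronectin receptor chain, had 1.03 and 1.44. The Itgb5 peak lay 62.5 kb into the gene, at an internal start site. Itgb3 and Itgb6 were open at lower values of 0.693 and 0.995, and of 0.629 and 1.04. Itgb2 and Itgb7, the leukocyte beta chains, Itgb2l and Itgb4, the hemidesmosome chain, had no peak. The 5 open beta chains, those of Itgb1, Itgb3, Itgb5, Itgb6 and Itgb8, are also those known to pair with the Itgav chain. This match was not tested, and Itgb6 lost its call on the shorter list. Each of the 5 was higher in replicate 2, as were 13037 of all 14116 open genes.

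Part of the Itgb1 promoter peak and the part of the Itga2b peak outside exons are printed, as the highest promoter peaks of a beta and an alpha chain gene. The Itga2b one, as said above, lies at an internal start site of a noncoding transcript. The printed stretches are chr8:128685382-128685631, plus strand, and chr11:102467200-102467300, minus strand, both of GRCm38.
Itgb1 promoter peak: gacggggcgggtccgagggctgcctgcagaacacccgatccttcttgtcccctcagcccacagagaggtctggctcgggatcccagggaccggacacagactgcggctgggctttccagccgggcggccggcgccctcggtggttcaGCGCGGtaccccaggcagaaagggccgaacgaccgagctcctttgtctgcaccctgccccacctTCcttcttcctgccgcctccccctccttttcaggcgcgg
Itga2b promoter peak: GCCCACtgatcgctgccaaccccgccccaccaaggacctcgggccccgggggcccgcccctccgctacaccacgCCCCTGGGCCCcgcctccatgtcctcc
The letters GGGCGG, the binding core of Sp factors, occur on either strand at 2 places in each. Footprints of both replicates covered 8 bases of the Itgb1 stretch and 17 of the shorter Itga2b stretch.

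The genes matched by letters alone had higher promoter values than most of the collagens, laminins and integrins. Itgb1bp1, a protein that binds the tail of the beta1 chain, had 5.96 and 6.56 over a window shared with the start of Cpsf3. Col4a3bp, a ceramide transporter, had 3.56 and 5.16 over a window shared with Polk. Itgb3bp, a centromere protein, had 3.32 and 4.35 over a window shared with Efcab7, 100.5 kb into the gene record. Itgbl1, a secreted protein with integrin-like repeats, had 1.05 and 1.33, and Itgb1bp2, a muscle protein, had no peak. Without these genes the median of the mean promoter value over open members was 1.09.

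The replicates gave similar pictures. Of the 53 open members 48 had the higher value in replicate 2, as had 13037 of all 14116 open genes. The median log2 ratio of the members was 0.33, with a range of -1.47 to 0.83. Over all open genes the median was 0.32, nearly the same offset. The highest peaks of the replicates overlapped in 51 of 53 members (96.2%), against 95.5% of all open genes. In 12 of the 53 the highest peak lay more than 1 kb from the 5′ end of the gene record in both replicates, at other start sites (22.6%, against 12.5% of all open genes), for example 127 kb into Col26a1 and 101 kb into Col13a1. The 53 open members were also longer, with a median length of 119.8 kb against 25.9 kb over all open genes. With only the 5′ end of the gene record counted, Col25a1, Col27a1, Col2a1, Lama2, Itga2b, Itga6 and Itgal lost their call. There 22 of 45 collagens (48.9%), 8 of 11 laminins (72.7%) and 16 of 31 integrins (51.6%) were open, against 59.6% of all genes. Footprints were fewer than over all open genes: 45 of 53 members (84.9%) had a footprint in the promoter peak of both replicates, against 96.2%. The median number per gene was 3 in each replicate, against 5. This comparison was not matched for peak value, which had a median of 1.15 in the members against 2.87, and the part of that difference was not tested. The members without one in at least 1 replicate included Col4a3, Col4a4, Col4a5, Lama5 and Itgal, whose peaks were low in at least 1 replicate.

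Other genes of the same pathway, taken from lists of matrix proteins, collagen processing and adhesion machinery, were open in 35 of 44 cases, against 64.3% of all genes. Of the 44, 29 had a CpG-rich promoter, and 27 of these were open, against 95% of all such genes. Among the 15 with a CpG-poor promoter 8 were open, against 30.5% of all such genes. Other matrix genes had 11 of 14 open, led by Dag1, which carries the laminin receptor dystroglycan, at 4.05 and 5.52. Nid1, which links laminin to type IV collagen, and Vtn had none. Collagen processing genes had 10 of 13 open, led by P4ha1 and P4hb, the subunits of prolyl hydroxylase, at 6.27 and 9.02 and at 6.78 and 8.07. Loxl2 and Pcolce had none. Genes that tie integrins to actin had 14 of 17 open, among them Vcl (4.76 and 5.57), Fyn (4.50 and 5.11) and Tln1 (4.36 and 5.12), the genes of vinculin, a Src family kinase and talin. Tln2 and Fermt1 had none. The highest value of each of these lists thus lay above those of all 82 collagens, laminins and integrins in the strict sense, in both replicates.

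Outside promoters the members had open sites more often than all genes, and they were also longer. Sites were peaks in the gene or within 10 kb of it, away from every annotated start site by more than 1000 bp, and shared when the replicates' peaks overlapped. At least 1 shared site was found in 75 of 87 members, against 53.5% of all genes: in 38 of 45 collagens (84.4%), 10 of 11 laminins (90.9%) and 27 of 31 integrins (87.1%). At least 5 were found in 22 members (25.3%), against 8.45%. The median was 3 per member against 1 over all genes, and 2.38 against 1.13 per 100 kb searched. They had a median length of 82.5 kb against 17.4 kb. Of the 87, 37 fell in the longest 10% of all genes, where they had a median of 4 sites against 5 for all genes of that length class. In the next 10% by length 16 members had a median of 3 against 2.

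**Figure D3:**
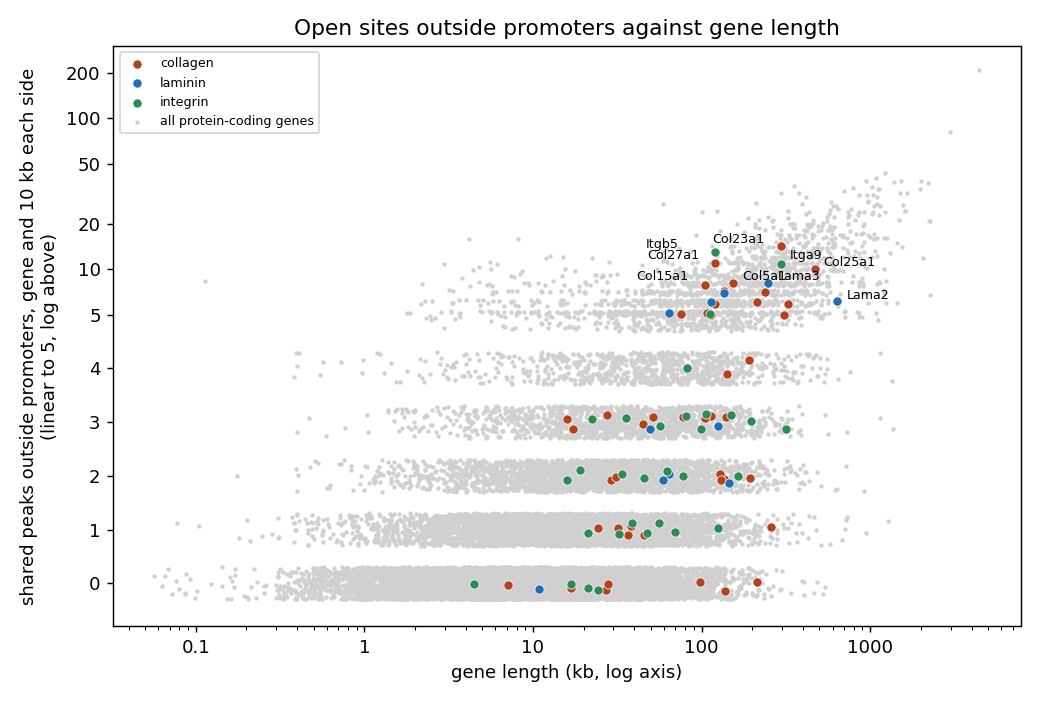
Gene length (kb, log scale) against the number of shared open sites outside promoters (linear to 5, log above). Coloured points are collagen, laminin and integrin genes and grey points all protein-coding genes, both spread slightly in height for legibility. The members sit among genes of similar length, and Itgb5, Col27a1 and Col23a1 lie towards the top of the members.

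The 285 pairs of a member and a shared site covered 284 different peaks. Of these pairs 209 (73.3%) lay in introns of the member, 40 in exons and 36 in the flanks, and 15 lay in another coding gene as well. The median value of the mean over replicates was 0.693, against 0.716 over all 47593 shared sites outside promoters, and a footprint in both replicates was found in 73.3% against 72.4%. So the sites resembled those of the whole series in value and in footprints. By number Col23a1 came first with 14 and Itgb5 next with 13, of which overlapping peaks joined leave 11. Col27a1 and Itga9 had 11 each, Col25a1 10, and Col15a1, Col5a1 and Lama3 8 each. Per 100 kb of a span of at least 50 kb, Itgb5 had 9.31, Col27a1 7.80, Col15a1 6.40 and Itgb2 5.41. Of these genes Itgb2 had no promoter peak.

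**Figure D4:**
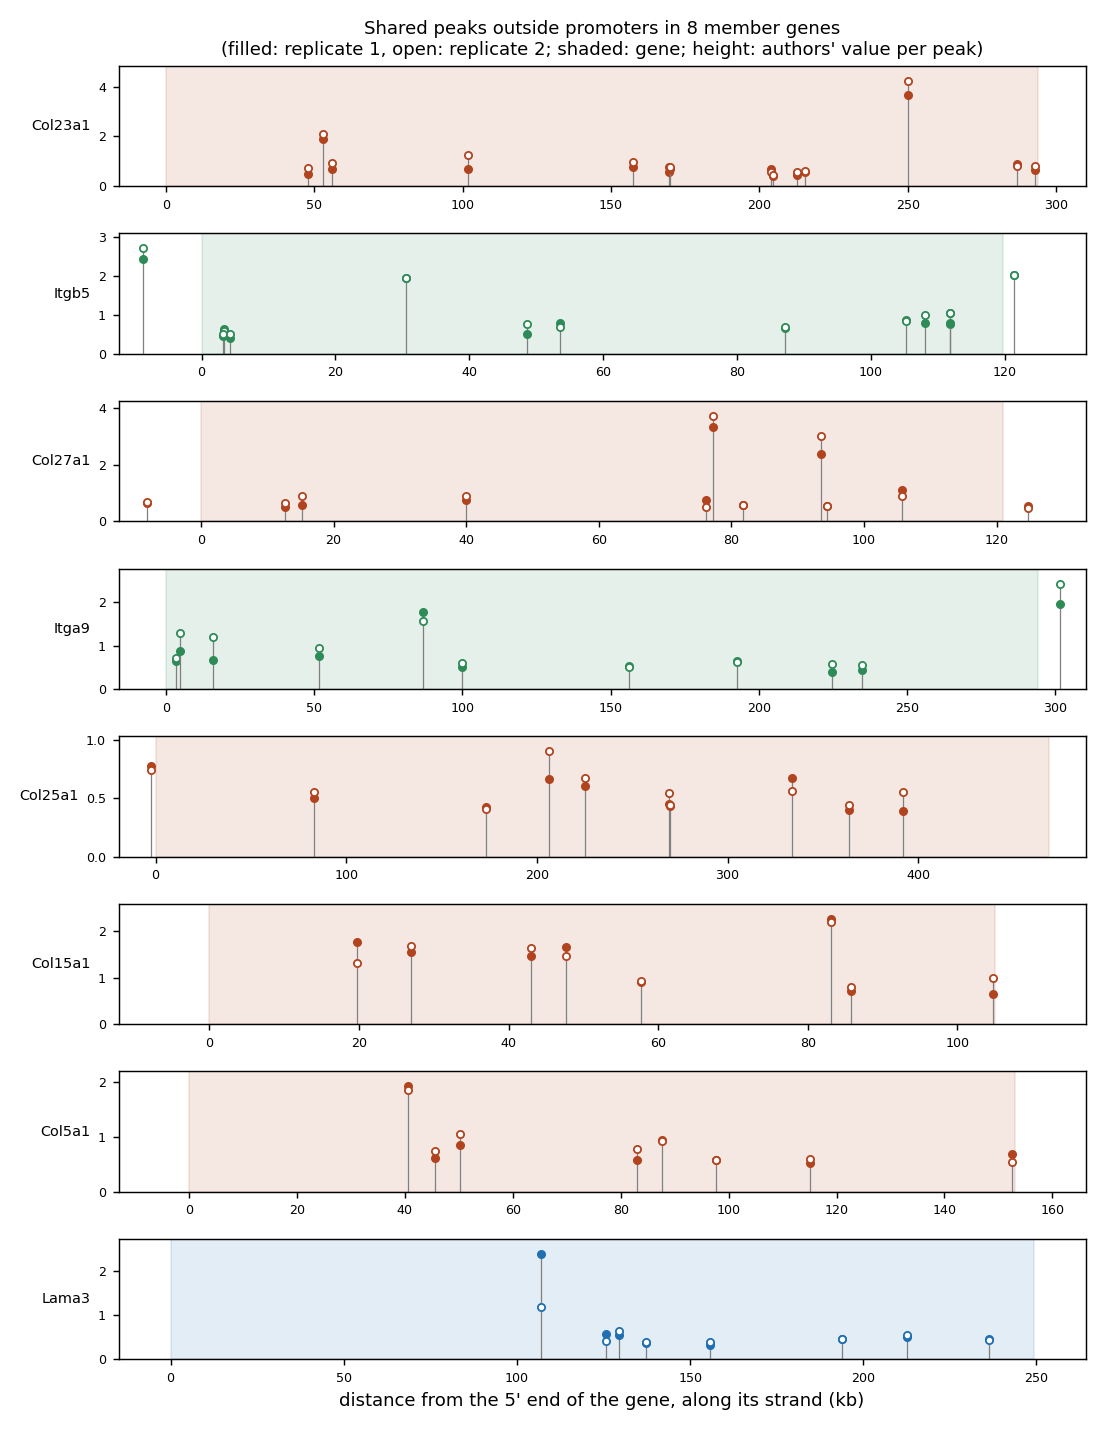
Shared open sites outside promoters in the 8 members with the most, plotted by distance in kb from the 5′ end of the gene record along its strand. The shaded block is the gene, filled points are the value in replicate 1 and open points in replicate 2, and each panel has its own vertical scale. Most sites lie inside the gene, and in Col23a1 and Lama3 a single site stands above the others.

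Within these genes 1 or a few sites usually stood out. In Col23a1 the values ran between 0.424 and 3.66 in replicate 1 with a median of 0.675, and between 0.465 and 4.23 in replicate 2 with a median of 0.787. The highest lay 249.96 kb into the gene. In Itgb5 the strongest site lay at -8.70 kb from the 5′ end of the gene record, with 2.43 and 2.70, and in Itga9 it lay in the flank behind the gene, at 1.97 and 2.43. Col25a1, the neuronal collagen, had 10 weak sites of up to 0.778 in replicate 1 and 0.905 in replicate 2. Col15a1, with no promoter peak in replicate 1, had 8 sites with medians of 1.503 and 1.39, the highest medians among these 8 genes in both replicates. The strongest Lama3 site had 2.38 and 1.17, lower in replicate 2.

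By the mean of the replicates, the strongest shared sites of each family were mostly intronic. In collagens they were a Col18a1 intron at 4.46 and 5.02, a Col16a1 intron at 4.01 and 4.94 and the Col23a1 site above. Col18a1 thus had the strongest of all 284 sites and no promoter peak in either replicate. In laminins the highest were a Lamb3 intron at 2.84 and 2.99 and a Lamc3 intron at 1.71 and 2.06, although in replicate 1 alone the Lama3 site above, at 2.38, and another Lamb3 intron site, at 1.90, exceeded the Lamc3 one. In integrins an exon of Itga10 had 3.30 and 3.98 and an Itga6 intron 2.72 and 3.02. Itga10 and Lamc3, like Col18a1, had no promoter peak. In all, 24 of the 28 members with no promoter peak had a shared site outside promoters (85.7%), against 31.9% of all 7042 such genes, whose median length was 7.67 kb against 37.45 kb for the 28 members. Col10a1, Itga7, Itgax and Itgb1bp2 had no peak of either kind.

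The strongest site of each family outside promoters and exons is printed. They are chr10:77130641-77130880, minus strand, for Col18a1, chr1:193330241-193330500, plus strand, for Lamb3 and chr2:71812821-71813020, plus strand, for Itga6, all of GRCm38.
Col18a1 intron site: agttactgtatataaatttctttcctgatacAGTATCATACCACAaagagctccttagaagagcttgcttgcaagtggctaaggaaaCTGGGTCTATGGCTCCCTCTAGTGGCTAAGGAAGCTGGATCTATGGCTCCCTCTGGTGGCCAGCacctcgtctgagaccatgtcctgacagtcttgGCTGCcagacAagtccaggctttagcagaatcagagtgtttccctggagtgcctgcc
Lamb3 intron site: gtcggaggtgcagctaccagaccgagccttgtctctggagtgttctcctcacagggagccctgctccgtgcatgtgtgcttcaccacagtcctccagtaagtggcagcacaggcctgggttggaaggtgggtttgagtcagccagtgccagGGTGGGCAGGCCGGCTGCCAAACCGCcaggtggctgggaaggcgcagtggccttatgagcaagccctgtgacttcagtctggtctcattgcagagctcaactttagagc
Itga6 intron site: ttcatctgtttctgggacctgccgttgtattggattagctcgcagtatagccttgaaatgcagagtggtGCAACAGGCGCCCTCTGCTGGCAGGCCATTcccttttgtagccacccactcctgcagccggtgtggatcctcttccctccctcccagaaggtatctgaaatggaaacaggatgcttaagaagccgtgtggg
Footprints of both replicates covered 84 of the 240 bases at Col18a1, 26 of 260 at Lamb3 and 30 of 200 at Itga6. The CTCF-like letters stood inside such footprints at Col18a1, as CCCTCTAGTGG and CCCTCTGGTGG, and at Itga6, as CCCTCTGCTGG, as they did at the Col1a1 promoter peak. The Lamb3 site holds TGAGTCA, letters of the AP-1 motif TGANTCA, outside the footprints.

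The CTCF-like letters were then counted in windows of 200 bp on the midpoint of every shared site outside promoters. They stood in 55 of 284 member sites (19.4%), against 18.2% of all 47593 sites. Among the top 10% of all sites by value, 11 of 31 member sites held them, against 40.3% of all. Member sites with the letters had a median value of 0.901 and those without 0.663, while over all sites the medians were 1.04 and 0.671. The share in member sites was thus close to that in all sites.

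Promoter windows of 300 bases from RefSeq (GRCm38.p6) were matched for 62 of 87 members, in 68 windows, and scanned on both strands. GGGCGG stood in 52.9% of them, against 47.8% of all 20150 windows, and CCAAT in 26.5%, against 37.8%. GAGGAA, letters of the Ets motif, stood in 41.2%, against 27.2%. TATAAA stood in 7.35% against 12.1%, TGANTCA in 5.88% against 6.998%, TGACGTCA, the cAMP response element, in 1.47% against 2.31%, and the CTCF-like letters in 10.3% against 7.28%. CACGTG, the E-box, was in 0 member windows, against 8.03% of all, and the palindromic nuclear factor I motif was in 0 against 0.0298%. None of these shares was tested, and a missing match says nothing of the factor.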

How the data were processed

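DNase-seq of 2 replicates of 1 group was used. Per the deposited file descriptions, calls were made on single libraries, aligned to mm10 (GRCm38), and not on pooled reads. Names of the aligner and caller were not given in the sources used here. The authors deposited a signal value for each peak and stated neither its unit nor its normalization, and no read depth is given, so no counting interval could be made. The p-value columns deposited by the authors are false discovery rates: 0.01 for every footprint, and under 0.05 for the listed cut rate stretches. Of the 2 peak lists of a replicate the longer was used.

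Members were found by symbol in GENCODE M21. Members, lists and motifs were chosen with earlier results of these data known. Peaks had to overlap a promoter, or each other, by at least 1 bp. The value of a gene was its highest promoter peak. Shared sites were counted on the peaks of replicate 1. CpG content and sequence came from the GRCm38.p6 reference. Named genes were up to 3 with the highest mean promoter value in each class, those with a peak in 1 replicate, the type IV pairs, and the members with the most or strongest outside sites; a few others are named in counts. Genes matched by letters alone were passed over for printed sequences. With 1 group and 2 replicates no test was made. The counting was checked on simulated peaks. Python 3.11.15, numpy 2.4.6 and pysam 0.24.0 were used. Protein sequences were not analysed here. A few values and 1 sequence are not reported here.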

Additional observations from a re-analysis of the deposited data

How the results depend on the processing

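Counts of open members moved by more than 1.5 times only when peaks under the median value of their list were left out: collagens fell to 16 of 45 against 25, and laminins to 4 of 11 against 9, losing all 5 alpha chains, while 59.5% of all genes were open. Integrins had 15 there. The other promoter alternatives, among them the shorter list (17 collagens, 6 laminins and 17 integrins, against 59.3% of all genes), windows of 500 or 2500 bp, other start sites, and stricter overlap, gave 17 to 30 collagens, 6 to 10 laminins and 16 to 20 integrins. Leaving out 1 replicate gave 27 to 28 collagens, 9 laminins and 19 to 20 integrins open, against 65.8% to 66.4% of all genes, and 41 collagens, 10 laminins and 28 to 30 integrins with a site outside promoters, against 58.8% to 64.1%. The alternatives for sites outside promoters gave 29 to 43 collagens, 7 to 11 laminins and 20 to 31 integrins, all within 1.5 times, while the share of all genes ran between 34.1% (gene body alone) and 80.0% (flank of 50 kb). Basic GENCODE start sites and joined overlapping peaks were alternatives chosen after seeing the data; the first cost Col2a1 and Itga2b their call and the second changed no count of genes. The protein comparison was not run. No paired analysis was possible because there is 1 group. Read depth is unknown and the limit of the peak lists is not stated, so a missing peak does not show that a promoter is closed.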
